A study of Drosophila melanogaster x Drosophila sechellia and Drosophila melanogaster and Drosophila sechellia with 12 samples.

Results

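RNA editing of the D. sechellia allele was compared between F1 hybrids whose D. melanogaster Adar gene was mutant and D. sechellia itself, in heads of adult female flies. The hybrids with the mutant gene are called Adar F1 here (3 libraries), and D. sechellia flies gave 2 libraries. The question was whether D. sechellia transcripts, placed in a hybrid that has a mutant D. melanogaster Adar gene beside its D. sechellia gene, are edited as they are in D. sechellia. A site was a member when it had at least 50 reads of the D. sechellia sequence in all 5 libraries, which held for 483 of the 1058 sites in the tables. All flies were 0 to 2 days old. The same measurement in F1 hybrids without the mutation (3 libraries) and in a mixture of both parent species (2 libraries) is given beside it, and D. melanogaster (2 libraries) serves for the other allele. For the Adar mutation, its nature, its stock and the parent of each sex were not given in the sources used here, and neither was the number of animals per library.

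Adar is the adenosine deaminase that acts on double-stranded RNA. It converts adenosine to inosine, which is read as G in cDNA. Pairing of an exon with a nearby stretch of the same transcript usually forms the double strand, so that the sequence around a site, carried by the allele, and the amount of active enzyme, shared by both alleles of a cell, can each set its level. In flies editing is known mainly from the nervous system, where many edited transcripts encode ion channels and proteins of synaptic transmission. The libraries were made by mmPCR-seq, in which 493 loci are amplified from cDNA by multiplex PCR and sequenced. Editing levels are given in percent, as the reads with G over all reads with A or G at a site.

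The members lay in 164 clusters, a cluster being a run of sites at most 1000 bases from the next. Another 458 sites had 50 D. sechellia reads in both D. sechellia libraries but fell short in at least 1 Adar F1 library, and 183 of these had no D. sechellia read in any Adar F1 library. Members were edited at a mean of 17.9% and those lost sites at 15.3% in D. sechellia. The members just inside the coverage rule, with a lowest count of 50 reads, were 2L 14083517 (76.2% in D. sechellia, 70.4% in Adar F1), 2R 20798584 (63.3% and 74.8%), 3L 7173538 (24.3% and 46.0%) and X 16292627 (0.742% and 0.667%). Just outside, at 49 reads, were 2R 4772882 (24.99% and 11.8%) and 2R 4772889 (2.34% and 2.49%). The tables hold no gene names, so a site is called by its chromosome arm and its position in the dm3 build. The tables hold counts at amplified sites only, so the labelled tissue was not checked against marker genes.

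The 12 libraries held 251870 to 398284 reads. Median D. sechellia reads per member were 335 and 299 in the D. sechellia libraries and 201, 240 and 190 in the Adar F1 libraries. Coverage over members correlated by 0.324 to 0.372 between Adar F1 and D. sechellia libraries and by 0.799 to 0.848 between F1 and D. sechellia libraries, so a difference in amplification and the Adar genotype cannot be told apart. In the D. melanogaster libraries 2.10% and 2.08% of all reads carried the D. sechellia assignment, and at the median member 0.179% did. At 66 members the D. sechellia share of reads differed by over 30 percentage points between Adar F1 and F1, toward D. sechellia at 59 of them. Such sites are said to have a shifted share. At 22 members a parent species read as G in at least 95% of reads, where full editing cannot be told apart from a G in the genome.

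D. sechellia transcripts were edited less in Adar F1 than in D. sechellia at many sites and more at few. Of 375 members with a mean level of at least 1%, 106 differed (28.3%), of which 84 (22.4%) were lower and 22 (5.87%) higher in Adar F1 (quasi-binomial test, adjusted p at most 0.0442). At 102 of the 106 called sites (27.2% of the 375) the libraries of the groups also did not overlap. This is no separate support, as sites that were not called also lacked overlap, such as 2R 20802212 (adjusted p = 0.181). The lower sites lay in 49 clusters and fell by a median of 9.59 percentage points, to a median of 57.8% of the D. sechellia level. The higher sites lay in 13 clusters and had a median difference of 8.94 points. Of all tested sites, 258 (68.8%) were lower in Adar F1 whatever their p-value, the median difference was -1.38 points, and the median site stood at 87.3% of its D. sechellia level. The other 108 members were edited at under 1% on average and were not tested.

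**Figure D1:**
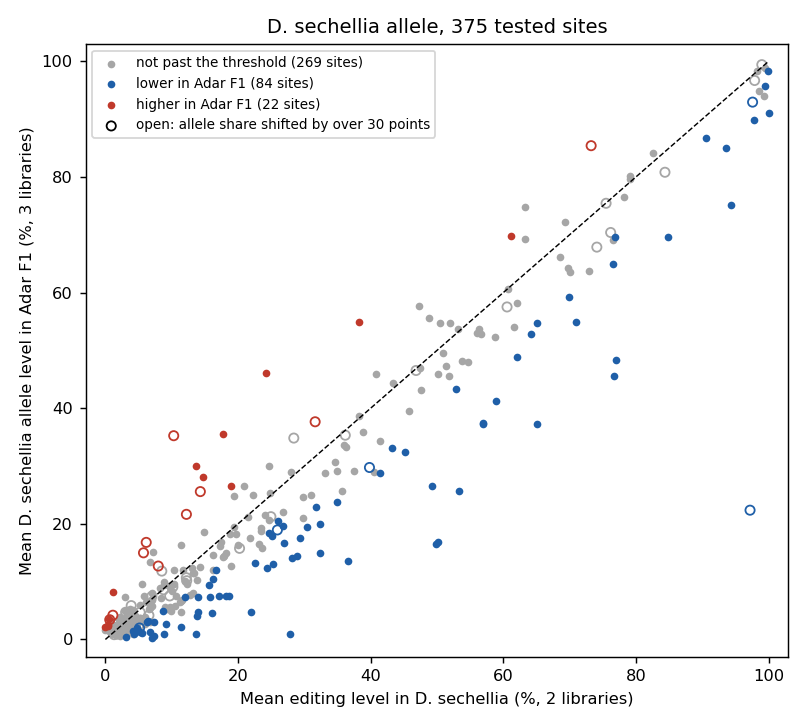
Mean D. sechellia allele editing level (%) in the 3 Adar F1 libraries against that in the 2 D. sechellia libraries, 1 point per tested site; the dashed line marks equal levels. Of the 106 coloured sites, 84 lie below the line and 22 above it, and open symbols mark sites whose share of D. sechellia reads was shifted by over 30 points.

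The counts depended on the library and the test to some degree. Without D. sechellia replicate 2 there were 66 sites, 49 lower and 17 higher. Without D. sechellia replicate 1 there were 85, but only 9 of them higher. limma on arcsine-transformed levels called 59, of which 51 were lower and 8 higher. Sites with a shifted share made up 5 of the 84 lower sites and 10 of the 22 higher ones. The shift went toward D. sechellia at all 5 of the former and at 6 of the latter 10. With those sites left out, an alternative chosen after seeing the data, 91 of 321 sites differed, 79 lower and 12 higher. The part of read assignment in the rises was not tested.

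Averaged over the 483 members, the D. sechellia allele was at 17.3% and 18.5% in the D. sechellia libraries. It was at 16.7%, 15.2% and 15.1% in the Adar F1 libraries. The groups did not overlap, and the difference was -2.25 points (15.7% ± 0.935, SD, n = 3, against 17.9% ± 0.865, n = 2). The two-sided p of an exact permutation test was 0.2, and 3 libraries against 2 cannot give a smaller one. Among the Adar F1 libraries, replicate 1 was the highest at 56 of the 84 lower sites and at 213 of the 375 tested sites. Without it 115 sites differed, 99 lower and 16 higher.

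The D. sechellia allele was then set beside that of hybrids without the mutation and of the mixed parents. Over 437 members with 50 D. sechellia reads in all 10 libraries that hold the species, mean levels were 17.8% and 18.9% in D. sechellia and 17.3% and 18.3% in the mixed parents. They were 18.4%, 17.3% and 17.98% in F1 and 16.8%, 15.3% and 15.1% in Adar F1. All 3 Adar F1 libraries lay below the other 7, whereas F1, mixed parents and D. sechellia overlapped. The exact permutation test of Adar F1 against F1 gave p = 0.1, below which 3 libraries against 3 cannot go (adjusted 0.4 over 4 pairs of groups). For F1 against D. sechellia the exact permutation p was 0.6.

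By site, F1 differed from D. sechellia at 3 of 353 sites (0.85%), and 35 (9.92%) passed at an unadjusted p under 0.05. The mixed parents differed at 2 of 354 sites (0.565%), and 18 (5.08%) had an unadjusted p under 0.05. Adar F1 tested directly against F1 differed at 57 of 354 sites (16.1%), 47 of them lower (13.3%) and 10 higher (2.82%). These comparisons share libraries with the first. The median difference from D. sechellia was -0.359 points in F1 and -0.314 in the mixed parents, and the median site stood at 97.6% and 98.5% of its D. sechellia level. When all 10 libraries were thinned to equal coverage at 350 common sites, an alternative chosen after seeing the data, Adar F1 differed from D. sechellia at 54 sites and from F1 at 55, while F1 differed from D. sechellia at 3. At the lower sites covered in all 10 libraries, the median level was 27.0% in D. sechellia, 26.8% in the mixed parents, 24.9% in F1 and 16.8% in Adar F1. At the higher sites so covered it was 9.14%, 10.8%, 11.5% and 19.2% in the same order. Both sets were chosen by the difference between D. sechellia and Adar F1, so that gap is no separate support.

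**Figure D2:**
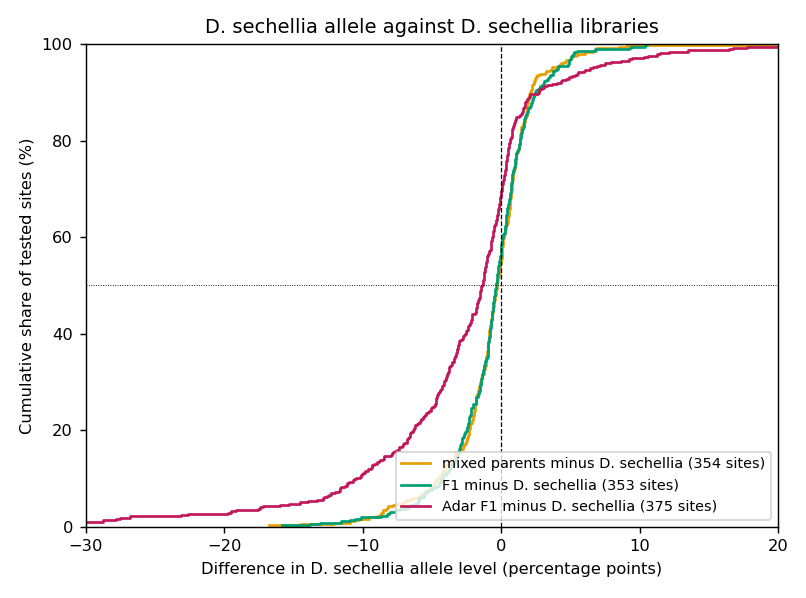
Cumulative share of tested sites (%) by the difference in D. sechellia allele level (percentage points) from the D. sechellia libraries, for mixed parents, F1 and Adar F1; the axis is drawn from -30 to 20 points. The curves of the mixed parents and F1 cross 50% close to 0, and that of Adar F1 lies to their left below 0, with a median of -1.38 points.

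The 3 sites called in F1 were X 2006388, 3R 14733513 and X 14992625, which were also lower in Adar F1. At X 2006388 every read of both D. sechellia libraries was G. The D. sechellia allele there stood at 94.5% in the mixed parents, 91.9% in F1 and 91.1% in Adar F1, so that the libraries holding both species were all below D. sechellia. At X 14992625 both D. sechellia libraries were at 57.0%, F1 stood at 50.7%, 41.4% and 47.2%, and Adar F1 at 41.3%, 33.7% and 36.8%. The 2 sites called in the mixed parents were X 2006388 and 2R 11406217.

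Sites were then grouped by their mean level in F1 and mixed parents, libraries that enter the fit of the spread but not the difference from D. sechellia. Among 133 sites under 5%, 8 were lower and 8 higher in Adar F1, and the median difference was -0.162 points. Lower sites were 28 of 107 at 5 to 20%, 25 of 75 at 20 to 50% and 13 of 41 at 50 to 80%, with 7, 5 and 2 higher sites. The median site stood at 80.4%, 82.5% and 91.6% of its D. sechellia level in these classes. At 80% and over, 10 of 19 sites were lower, none was higher, and the median was 95.8%. The median level of this class in D. sechellia was 97.8%. At 95% G or more, full editing cannot be told apart from a G in the genome. Of the 20 tested sites with such a level in a parent species, 7 were called, all of them lower. Whether the lower sites of the top class reflect a loss of editing was therefore not tested. No test between classes was run. By chromosome arm, the called share ran from 16.7% of 60 sites on X and 21.1% of 90 on 3R to 28% of 100 on 2R, 38.4% of 73 on 3L and 39.6% of 48 on 2L, and 2 of 4 sites on chromosome 4 were lower.

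The largest loss lay at a site with a shifted share. At 3R 14733513 the D. sechellia libraries read 97.2% and 97.2% G and the Adar F1 libraries 21.7%, 24.1% and 21.3% (difference -74.8 points, 95% interval -77.5 to -72.2, adjusted p = 4.8e-20). F1 stood at 92.5%, 90.7% and 91.7%, far above every Adar F1 library. The D. sechellia share of reads was 39.8% in F1 and 99.9% in Adar F1 at this site, and the D. melanogaster parent was at 2.19%. Whether D. melanogaster reads of the Adar stock were counted as D. sechellia reads there was not tested, so the value is the level of the reads assigned to D. sechellia.

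Among the 11 other sites with the largest losses, none had a shifted share. At 3R 1062051 the D. sechellia libraries were at 51.5% and 48.1%, F1 at 47.1%, 54.5% and 39.3%, and Adar F1 at 22.6%, 14.01% and 12.9%. The level fell by 33.3 points (95% interval -39.2 to -27.4, adjusted p = 7.93e-09), and the test against F1 also passed (adjusted p = 1.32e-07). Only 3 bases away, 3R 1062054 went from 95.7% and 92.8% to 86.7%, 71.6% and 67.2%, a difference of -19.1 points (adjusted p = 9.61e-06). The neighbouring sites thus kept 33.2% and 79.7% of their D. sechellia levels, which were 49.8% and 94.3% on average. With starting levels this unlike, the kept shares need not mean unlike changes in log odds, the scale of the test.

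The adjacent sites 3R 123239 and 3R 123240 kept 3.59% and 36.9% of their D. sechellia levels. No test between neighbouring sites was run for either pair. The first was at 28.9% and 26.6% in D. sechellia, at 29.0%, 21.8% and 37.3% in F1, and at 1.87% and 1.12% in Adar F1 replicates 2 and 3. Adar F1 replicate 1 had 0 G among 65 reads, which allows a level of up to 4.62%. The second was at 36.6% and 36.7% in D. sechellia and at 13.8%, 12.1% and 14.6% in Adar F1. Adjusted p-values were 3.23e-07 and 2.43e-05, and no library of Adar F1 reached the lowest D. sechellia, F1 or mixed library at either site.

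At 2L 4986257 the D. sechellia libraries were at 49.3% and 49.1%, and the Adar F1 libraries at 26.7%, 27.96% and 25.1% (difference -22.6 points, adjusted p = 1.44e-06). F1 was between them, at 38.8%, 48.6% and 38.2%, as were the mixed parents at 37.0% and 40.3%. On the X, 14992625 fell by 19.7 points (adjusted p = 5.31e-05), and 11864589 went from 54.8% and 59.2% to 35.6%, 45.0% and 31.8% (adjusted p = 0.0022). At both X sites the mean of F1 lay between the other means, but F1 replicate 3 overlapped Adar F1 at 11864589, and the test of Adar F1 against F1 missed the threshold (adjusted p = 0.053 and 0.475).

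At 3R 24424516 the D. sechellia libraries read 54.7% and 51.8% and Adar F1 29.5%, 29.2% and 18.6%, while F1 read 35.7%, 39.0% and 37.7%. The mixed parents, at 25% and 48.1%, overlapped Adar F1 there. The difference from D. sechellia was -27.5 points (adjusted p = 0.000158), and that from F1 missed the threshold (adjusted p = 0.153). At 2R 4771211, where the D. melanogaster parent was at 96.9%, levels went from 79.4% and 74.0% to 64.6%, 40.0% and 32.2% (adjusted p = 0.000236). Its 3 Adar F1 libraries were spread over more than 30 points, and Adar F1 replicate 1 overlapped F1.

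With the mixed parents as the reference, the loss was smaller at 2L 4986257 (-12.1 points, adjusted p = 0.0215) and X 14992625 (-12.9 points, adjusted p = 0.0129). Against the same reference it missed the threshold at 3R 24424516 (-10.8 points, adjusted p = 0.180) and X 11864589 (-11.3 points, adjusted p = 0.199). The loss at X 11864589 also missed it with reads thinned to equal coverage (-15.1 points, adjusted p = 0.0505), and at common sites (-15.5 points, adjusted p = 0.108).

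**Figure D3:**
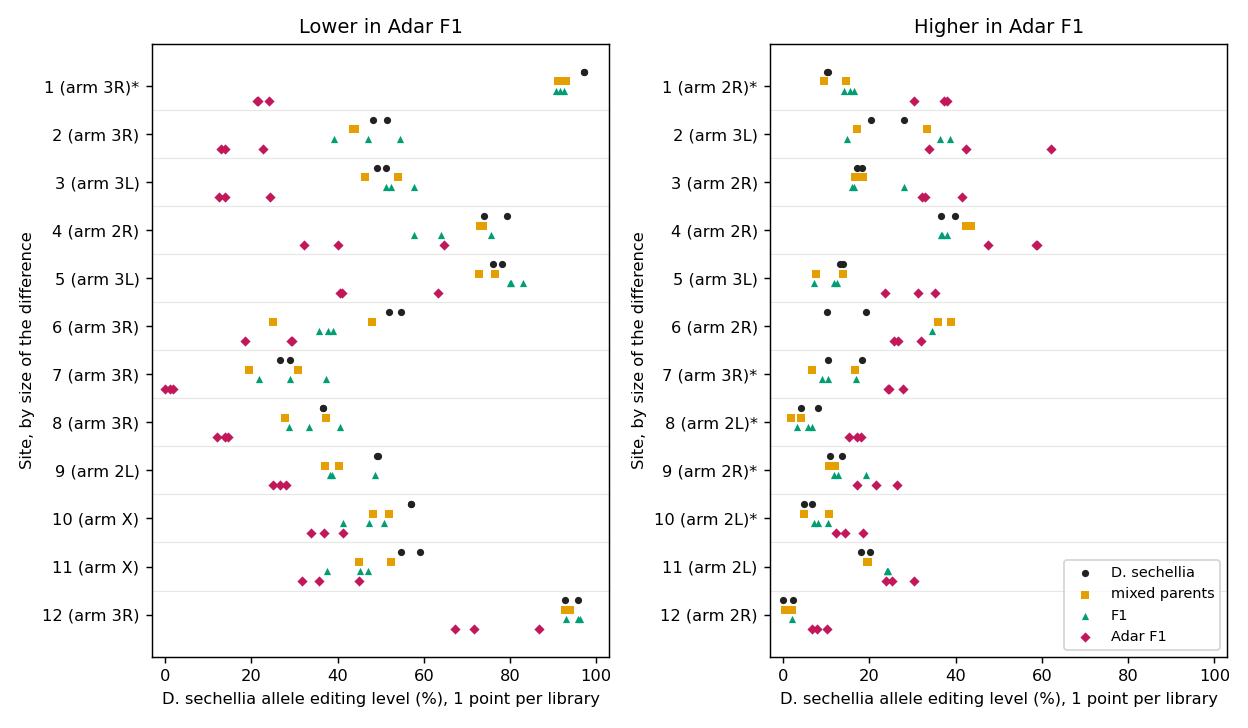
D. sechellia allele editing level (%) in each library of 4 groups at the 12 sites with the largest losses (left) and the 12 with the largest gains (right) in Adar F1, ordered by the difference from D. sechellia; an asterisk marks a shifted share. Sites were chosen without overlap of these groups, so by that choice Adar F1 lies to the left of both D. sechellia libraries in every row of the left panel. A shifted share marks 5 of the 12 rows on the right and 1 on the left.

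Called sites of a locus mostly moved one way. Of 20 clusters with at least 2 called sites, 17 had all of them in 1 direction, and 3 had both. As 84 of all 106 called sites were lower, many clusters would agree in direction anyway. The count was not tested against that share. Neighbouring sites share amplicons and reads, so they are not independent measurements.

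The locus with the most called sites lay on 3L, where 11 of 13 tested sites were lower, all within 80 bases from 9826391 to 9826470. The allele share there was alike in both kinds of hybrid, with 66.7% and 67.7% D. sechellia reads at 3L 9826400 in Adar F1 and F1. At that site the D. sechellia libraries were at 49.2% and 51.2%, F1 at 57.7%, 52.3% and 51.3%, and Adar F1 at 24.4%, 13.8% and 12.5% (difference -33.3 points, adjusted p = 3.72e-08). The adjacent 3L 9826401 went from 61.5% and 68.8% to 46.9%, 31.8% and 33.3% (adjusted p = 3.22e-06). At 3L 9826469 levels went from 76.0% and 78.1% to 63.3%, 41.0% and 40.6%, and at the adjacent 3L 9826470 from 20.8% and 23.0% to 8.21%, 3.38% and 2.57%. Adar F1 replicate 1 was the highest of its group at these 4 sites and still lay below both D. sechellia libraries. The called sites of this locus kept from 15.0% (3L 9826406) to 62.7% (3L 9826469) of their D. sechellia level. The last tested site, 3L 9826559, was at 35.9% and 39.2% in D. sechellia and at 35.3%, 25.9% and 26.2% in Adar F1, which missed the threshold (difference -8.45 points, 95% interval -14.7 to -2.20, adjusted p = 0.0568).

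On 2R, 7 of 19 tested sites of a locus were lower and none higher, over 83 bases from 20802315 to 20802397. Among these 7 called sites, the strongest relative loss was at 2R 20802352, with 27.6% and 28.6% in D. sechellia, 21.9%, 23.0% and 22.6% in F1, and 15.9%, 14.7% and 11.9% in Adar F1 (adjusted p = 3.92e-06). D. sechellia, F1 and Adar F1 did not overlap one another there. Adar F1 against F1 passed the threshold (adjusted p = 0.00238), whereas F1 against D. sechellia did not (-5.58 points, adjusted p = 0.420). At 2R 20802381 the levels were 93.1% and 94.1% in D. sechellia and 87.0%, 82.1% and 86.1% in Adar F1 (adjusted p = 0.000102). Only 1 base further, 2R 20802382 was at 9.65% and 9.49% in D. sechellia and at 9.42%, 8.602% and 9.90% in Adar F1, with a difference between -2.99 and 2.46 points (95% interval). The called sites of this locus kept from 50.5% to 90.9% of their D. sechellia level.

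**Figure D4:**
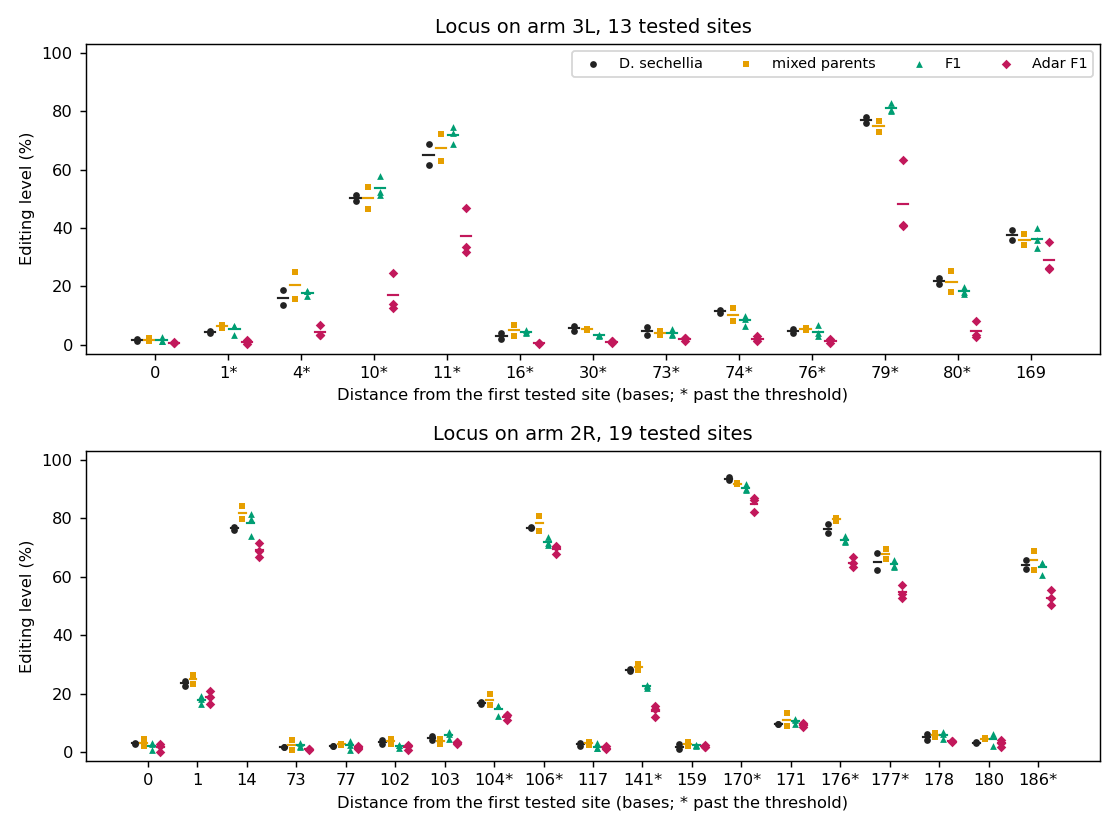
D. sechellia allele editing level (%) at the tested sites of a locus on 3L (top) and of one on 2R (bottom), by distance in bases from the first tested site; points are libraries, short lines are group means and asterisks mark called sites. In the upper panel 11 of 13 sites are lower in Adar F1, and in the lower panel 7 of 19.

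Smaller loci with at least 3 lower sites were found at 2L 4986257 to 4986891, at 3L 9860438 to 9860549, at 3L 12204771 to 12204865 and at X 9171041 to 9171062. At 3L 9860543 the D. sechellia libraries were at 13.6% and 13.8%, F1 at 8.96%, 15.1% and 10.9%, and Adar F1 replicates 1 and 2 at 1.78% and 0.926%. Adar F1 replicate 3 had 0 G among 156 reads, which allows up to 1.92%. This site kept 6.58% of its D. sechellia level, while 3L 9860439 of the same locus was at 36.0% and 34.0% in D. sechellia and at 36.1%, 26.5% and 25% in Adar F1 (adjusted p = 0.256). All 3 tested sites of the X locus were lower. Of these, X 9171041 went from 17.9% and 18.5% to 9.84%, 6.52% and 6.41% (adjusted p = 0.000158).

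Called sites of both directions lay within 1 locus at 2L 3762336 to 3762410, at 2R 8336159 to 8336339 and at 3L 12204771 to 12204865. In the 3L locus 3 sites were lower, but 3L 12204771 went from 0.48% and 0.675% in D. sechellia to 5.33%, 1.90% and 3.43% in Adar F1 (adjusted p = 0.0052). In the 2L locus 2L 3762371 fell from 62.9% and 61.1% to 54.8%, 46.9% and 44.6% (adjusted p = 0.000291). In contrast, 2L 3762337 rose from 20.05% and 17.95% to 30.3%, 23.9% and 25.3% (adjusted p = 0.00322). F1 was at 24.3%, 24.2% and 24.1% at the latter, within the range of Adar F1, and the test of Adar F1 against F1 gave adjusted p = 0.516. This gain missed the threshold with limma (adjusted p = 0.0739) and with the mixed parents as the reference (6.93 points, adjusted p = 0.0651).

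Of the 12 largest gains, 7 had no shifted share, 2L 3762337 among them. At 2R 11406217 and 2R 11406154 a shift toward D. sechellia could not have shown. Their D. sechellia share was 100% in Adar F1, 99.7% in F1 and 99.6% in the mixed parents, with no level for the D. melanogaster allele. At 2R 8336159 the D. sechellia libraries were at 17.2% and 18.3%, F1 at 15.8%, 16.3% and 28.1%, and Adar F1 at 32.8%, 41.4% and 32.2% (difference 17.7 points, 95% interval 9.71 to 25.8, adjusted p = 0.00122). At 2R 8336191, 32 bases away, levels rose from 39.9% and 36.6% to 47.5%, 58.6% and 58.9% (adjusted p = 0.00558). The second gain missed the threshold without D. sechellia replicate 2 (15.1 points, adjusted p = 0.0516), with the mixed parents as the reference (12.04 points against 16.8, adjusted p = 0.124) and with thinned reads at common sites (9.94 points, adjusted p = 0.357). Both sites passed against F1 (adjusted p = 0.00412 and 0.00579), and the D. sechellia share of reads was 61.4% in Adar F1 and 54.7% in F1 at the first. Further along the same locus the share rose to 94.3% in Adar F1 against 56.3% in F1, and there 2R 8336322 was lower (97.1% and 98.1% against 94.1%, 91.2% and 93.5%).

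At 3L 7173538, a site of 50 to 98 reads per compared library, levels were 20.4% and 28.1% in D. sechellia and 62.0%, 33.8% and 42.4% in Adar F1 (adjusted p = 0.0182). The gain rested on few reads and missed the threshold without Adar F1 replicate 1 (13.8 points, adjusted p = 0.0997) and without D. sechellia replicate 1 (17.9 points, adjusted p = 0.0781). At 3L 13013548 levels rose from 13.3% and 13.9% to 31.3%, 23.5% and 35.2% (adjusted p = 0.00169), while F1 stood at 12.5%, 11.8% and 7.14% on 42 to 51 reads. At 2R 11406217 the Adar F1 libraries (32.0%, 26.7% and 25.8%) were above D. sechellia (10.1% and 19.2%) but below the mixed parents (36.0% and 38.8%). The gain missed the threshold without D. sechellia replicate 1 (8.93 points, adjusted p = 0.175). Its direction turned with the mixed parents as the reference, to -9.22 points (adjusted p = 0.0364). The nearby 2R 11406154 had 0 G among 140 reads in D. sechellia replicate 1, which allows up to 2.14%, and 2.19% in replicate 2, against 6.65%, 10.2% and 7.93% in Adar F1 (adjusted p = 0.00249). F1 replicates 1 and 2 had no read at these 2 sites and were dropped from their fits. The gain at 2R 11406154 missed the threshold without D. sechellia replicate 1 (6.08 points, adjusted p = 0.0590).

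The remaining 5 of the 12 largest gains had a shifted share. At 2R 11759340 the D. sechellia libraries were at 10.2% and 10.4%, F1 at 16.5%, 14.1% and 15.4%, and Adar F1 at 38.0%, 30.4% and 37.3% (adjusted p = 3.92e-06). Only 7.72% of reads were D. sechellia there in Adar F1, against 53.1% in F1, and the D. melanogaster allele of Adar F1 was at 56.1%. At 3R 23500441 every Adar F1 read was assigned to D. sechellia, against 38.9% in F1, and levels rose from 10.4% and 18.2% to 27.7%, 24.4% and 24.6% (adjusted p = 0.00125). The gain missed the threshold without D. sechellia replicate 1 (7.39 points against 11.3, adjusted p = 0.159) and with limma (adjusted p = 0.0806). This locus held 5 higher sites, of which 4 had this share and 3R 23500600 had 49.4% in Adar F1 and 53.5% in F1. The other named gains with a shifted share were 2L 6636748 (6.16% to 16.8%), 2R 20798091 (12.2% to 21.6%) and 2L 19509577 (5.74% to 15.0%), given as means of D. sechellia and Adar F1. Their D. sechellia share of reads was lower in Adar F1 than in F1. In the same order, it was 47.0% against 78.2%, 42.1% against 79.7% and 25.6% against 60.9%. Without D. sechellia replicate 1, 2L 19509577 missed the threshold (8.26 points, adjusted p = 0.0510), as it did against the mixed parents (adjusted p = 0.108). The gain at 2R 20798091 was lost in 6 of 19 alternatives, among them those without Adar F1 replicate 1 or 2 (adjusted p = 0.0571 and 0.0509) or D. sechellia replicate 2 (adjusted p = 0.107).

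Sites at which a difference of 5 points could be bounded were few. Of 137 sites at 20% or more in D. sechellia, 5 had a 95% interval of the difference within 5 points, all of them at 97% G or more in D. sechellia. An example is 2R 20798610, at 98.7% and 97.9% in D. sechellia and 97.4%, 98.6% and 98.98% in Adar F1. The D. melanogaster parent was at 98.4% there. The median width of the interval over all tested sites was 7.32 points.

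The D. melanogaster allele of the same Adar F1 libraries was set against D. melanogaster in the same way, at 341 members with 50 reads of both alleles. The median change was -1.23 points on the D. sechellia allele and -1.78 on the D. melanogaster allele, and 237 and 257 sites were lower. The test compared changes in log odds, while values are given in percentage points, and these scales can disagree. The changes of the alleles differed at 28 sites (8.21%), with the D. sechellia allele moving down relative to the other at 17 (4.99%) and up at 11 (3.23%). A parent species was at 95% G or more at 8 of them. The count of 28 depended on the libraries, at 17 without Adar F1 replicate 2 and at 11 and 15 without D. melanogaster replicate 1 and 2. Both alleles of a library were treated as independent in this test. The stock of the mutation was not given, so on the D. melanogaster allele a sequence difference between stocks and a change in editing cannot be told apart.

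**Figure D5:**
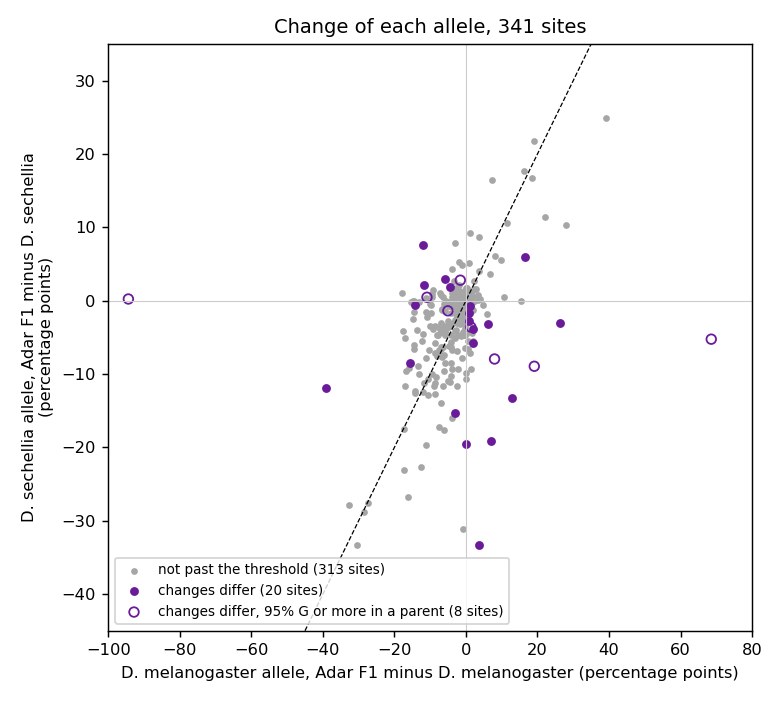
Change of the D. sechellia allele (Adar F1 minus D. sechellia) against change of the D. melanogaster allele (Adar F1 minus D. melanogaster), in percentage points, at 341 sites; the dashed line marks equal changes. Coloured points are the 28 sites whose changes in log odds differed, and open symbols mark the 8 of them at 95% G or more in a parent.

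At 3R 1062051 the D. sechellia allele lost 33.3 points, while the D. melanogaster allele was at 18.5% and 17.4% in D. melanogaster and at 22.0%, 22.9% and 20.3% in Adar F1 (adjusted p for the difference of changes = 5.66e-07). At 3L 4590708 the D. sechellia allele was at 35.8% and 36.8% in D. sechellia and at 35.8%, 32.3% and 31.6% in Adar F1, and the D. melanogaster allele went from 31.5% and 30.3% to 56.8%, 55.7% and 58.7% (adjusted p = 7.84e-07). At X 11864589 the D. sechellia allele fell by 19.5 points and the D. melanogaster allele stood at 38.2% in both groups (adjusted p = 0.0358). In the opposite direction, the D. melanogaster allele at 2L 6002117 went from 53.4% and 50.2% to 11.8%, 10.5% and 16.2%, and the D. sechellia allele from 20.4% and 28.3% to 12.4%, 9.95% and 14.8% (adjusted p = 0.0121). This difference missed the threshold without D. melanogaster replicate 1 (25.4 points, adjusted p = 0.0531) and with thinned reads (adjusted p = 0.0924). Both alleles thus stood at nearly the same level in Adar F1 at that site, at 12.4% and 12.8%. At the 3L locus described above, by contrast, the D. melanogaster allele at 9826400 went from 43.1% to 12.7%, close to the loss of the D. sechellia allele from 50.2% to 16.9%. In F1 the mean of the D. melanogaster allele was 24.9% at 3R 1062051, 26.9% at 3L 4590708 and 44.2% at X 11864589. It was 39.9% at 2L 6002117 and 42.3% at 3L 9826400.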

How the data were processed

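For each library the authors deposited raw A and G read counts per site and species sequence, per the file headers, together with an editing percent. Within rounding, this deposited percent is the G share of those reads, and it was used only for that check. BWA and the dm3 build are named in the submitters' processing notes. Its version, the read assignment rule and the site filters were not given in the sources used here. Levels were computed from D. sechellia counts. PCR reads are not independent molecules here, and limits of 3 counts cover counting error only. The intervals cover counting error scaled by the fitted spread among libraries of a group. Replicates are not stated to come from separate cultures, so p-values cover only the spread among these libraries, which may be technical.

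Each site was fitted with a quasi-binomial logistic regression over the 10 libraries that hold D. sechellia reads (4 groups); libraries without a read at a site were dropped there (5 tested sites). Dispersions were squeezed with limma 3.58.1 (R 4.3.3, squeezeVar, trend on coverage) and set to at least 1. A deviance F test with Benjamini-Hochberg adjustment used a threshold of 0.05. Mean levels were compared by exact permutation tests. Coverage differed between replicates by more than sampling noise (chi-square per degree of freedom 1.62 to 4.33). Recovery was checked on simulated counts with changes of 0.5, 1 and 2 in log odds. For Adar F1 against D. sechellia the test recovered 50%, 77.4% and 100% (384 sites, 2.78% of calls false). For F1 against D. sechellia it recovered 27.3%, 82.8% and 93.1% (352 sites, 7.69% of calls false). For the change between alleles it recovered 5.88%, 43.3% and 87.9% (343 sites, 2.22% of calls false, 1 of wrong sign). Mixed parents against D. sechellia had 8.06% of calls false (349 sites).

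Named sites are the 12 largest losses and gains past the threshold without overlap of libraries, at most 2 per cluster, sites of clusters with at least 3 called sites, at most 6 sites with an interval within 5 points, and the 4 largest changes between alleles each way; others were chosen after their values were seen. Members, lists and tests were chosen with earlier results of these data known. Gene lists were not used, since no annotation was at hand. Figures were drawn with matplotlib 3.10.9.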

Additional observations from a re-analysis of the deposited data

Results flagged for a closer look

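Results are given here where the change of the D. sechellia allele differed from that of the D. melanogaster allele in Adar F1, or where reads carried the assignment of a species that the library does not hold. Values are the change of the D. sechellia allele minus that of the D. melanogaster allele, in percentage points.

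The D. sechellia allele moved down relative to the other at 17 sites. The largest value, -73.8 at X 4253674, goes with Adar F1 libraries that disagree on the D. melanogaster allele, at 10.4%, 100% and 97.1%, where D. melanogaster is at 0.588% and F1 at 8.06%. It missed the threshold without any 1 library of D. sechellia or D. melanogaster (adjusted p from 0.0621 to 0.0848). The values were -37.1 at 3R 1062051, -29.2 at 3L 4590708, -28.1 at X 2006388, -26.3 at 3R 1062054 and -26.1 at 2L 3762371. They were -19.5 at X 11864589, -16 at 2L 17371335, -12.3 at 2R 18279015, -10.4 at 2R 8336228 and -9.28 at 2R 4771250. Smaller values were -7.75 at 2L 3762410, -5.86 at 2L 9717614, -4.98 at 3L 13854637, -3.54 at 2L 15651253, -2.42 at 2L 13188360 and -1.99 at 2R 4771246.

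It moved up relative to the other at 11 sites. The value of 94.6 at 2R 6708460 comes from the D. melanogaster allele, which is at 95.3% in D. melanogaster, 95.5% in F1 and 0.959% in Adar F1. The D. sechellia allele is at 0.168% in D. sechellia and 0.402% in Adar F1. Whether the stock of the mutation carries another sequence there was not tested. A level at 0 or 100% in a group leaves the log-odds change poorly determined, and without Adar F1 replicate 2 this site is not called. Further values were 27 at 2L 6002117, 19.5 at 2L 3762337, 13.8 at 2R 3988206, 13.8 at 3L 6943212 and 11.4 at 3R 14733486. The last were 8.73 at 3L 12204771, 7.1 at 2R 20399841, 6.4 at 2L 3762336, 4.36 at X 3847285 and 3.66 at 2R 17508359.

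Of these 28 sites, X 4253674, X 2006388, 2L 17371335, 3L 13854637, 2R 6708460, 3R 14733486, X 3847285 and 2R 17508359 read at least 95% G in a parent species.

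Reads of the other species made up 2.1% and 2.08% in D. melanogaster replicates 1 and 2, and 3.76% and 1.29% in D. sechellia replicates 1 and 2. With the 6 members left out where over 5% of D. melanogaster reads carried the D. sechellia assignment, 104 sites differed between Adar F1 and D. sechellia.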

How the results depend on the processing

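Adar F1 against D. sechellia gave 106 sites, and under the alternatives 54 to 143, with more sites lower than higher in each. limma gave 59, equal coverage at common sites 54, the mixed parents as reference 61, and leaving out 1 library 66 to 115. The change between alleles gave 28 sites, 17 with limma, 15 with only the compared groups in the fit, 15 with thinned reads, and 11 to 35 without 1 library. F1 against D. sechellia gave 3 sites, 1 with limma, 0 of 336 without sites at 95% G (31 at an unadjusted p under 0.05; limma gave 1 over all sites), and 1 to 3 without 1 library (1 without F1 replicate 2 or 3). Mixed parents against D. sechellia gave 2, 1 without sites at 95% G, 1 at common sites, and 0 to 5 without 1 library (0 of 346 without mixed parents replicate 2, where 13 had an unadjusted p under 0.05, and 5 without D. sechellia replicate 1; limma gave 2 over all libraries). Adar F1 against F1 gave 57, and 41 to 82 without 1 library. The mean difference of -2.25 points ranged from -2.86 to -1.64 without 1 library. Where a test or library changed a count, the cause was not tested. A group left with 1 library was assumed to vary like the rest.

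Of the 12 largest losses, 10 kept their call in every alternative that tested them, as did 4 of the 12 largest gains; 2R 11406217 turned to -9.22 points against the mixed parents. Replicate numbers share no stated origin, and deviations of same-numbered libraries correlated by 0.00705 and -0.0580, so they were not treated as pairs. The replicate block gave 82 sites for Adar F1 against D. sechellia, 31 between alleles, 59 against F1, and 4 and 3 for F1 and mixed parents.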
